A study of Mus musculus with 4 samples.

Results

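The guanylate-binding proteins (GBPs) are a family of large GTPases. The 9 genes described here, *Gbp2b*, *Gbp2*, *Gbp3*, *Gbp4*, *Gbp5*, *Gbp6*, *Gbp7*, *Gbp8* and *Gbp9*, were taken by symbol from a table of 55820 loci measured by RNA sequencing in mouse testes. All 9 were in the table, and all 9 were among the 20561 loci that passed edgeR's filter on low counts. The family was singled out because *Gbp2b* had no read in either knockout library, so the genotype values of the members are a description of these libraries, and no p-value is given for them.

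Whole testes were taken at P10 from mice whose strain the labels give as C57BL/6J. The control group had 2 libraries and the *Mps1*sKO group had 2 libraries. In *Mps1*sKO mice, a *Stra8*-Cre transgene, active from early spermatogonia to preleptotene spermatocytes, recombined a floxed *Mps1* gene (*Ttk* in the table), so the deletion was directed to germ cells while the RNA came from all cells of the testis. The floxed allele was made in embryonic stem cells whose clones were put into C57BL/6J blastocysts. The strain of those stem cells, any backcrossing, the alleles that the control mice carried, and whether a library came from 1 mouse, are not given in the sources used here. P-values from 2 libraries against 2 therefore measure only the spread between these libraries.

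GBPs are made in many cell types after exposure to interferon gamma and, more weakly, to type I interferons. They bind and hydrolyse guanine nucleotides, assemble on the membranes around intracellular bacteria and parasites, and help to release microbial products that start inflammasome signalling. Their promoters carry interferon-stimulated response elements (ISREs), bound by IRF1 and other interferon regulatory factors, and some carry gamma-activated sites (GAS). In mice the genes lie in a pair of clusters of tandem copies, so the members resemble each other in sequence.

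The sequences that distinguish the members are given first, because a read can only be counted on the right member where the copies differ. In the GENCODE M21 annotation on GRCm38, the coding sequence of *Gbp2b* and that of *Gbp2* are both 1767 bases long and were 82.5% identical. *Gbp5* was the next closest to *Gbp2b* at 65.1%, and the other members were between 57.8% and 59.9% identical to it. The 4 members on chromosome 5 were much closer to each other, with 88.9% to 91.9% identity between pairs. The stretches below are 60 bases of coding sequence around the P-loop, the nucleotide-binding motif of GTPases, with its 8 codons in capitals. They are shown because even in this conserved motif *Gbp2b* differed from every other member.
Gbp2b: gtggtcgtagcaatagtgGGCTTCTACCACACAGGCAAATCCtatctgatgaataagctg
Gbp2: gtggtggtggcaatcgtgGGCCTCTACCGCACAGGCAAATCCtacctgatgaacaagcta
Gbp5: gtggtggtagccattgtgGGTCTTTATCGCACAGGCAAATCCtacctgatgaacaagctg
Gbp3: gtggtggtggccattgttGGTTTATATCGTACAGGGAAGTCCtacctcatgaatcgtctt
Gbp7: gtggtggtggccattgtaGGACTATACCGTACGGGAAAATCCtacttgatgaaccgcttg
Over these 60 bases, *Gbp2* differed from *Gbp2b* at 8 positions, *Gbp5* at 10, *Gbp3* at 18 and *Gbp7* at 19. *Gbp8* and *Gbp9* differed from it at 16 positions, *Gbp6* at 17 and *Gbp4* at 19.

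Reads were 150 bases long, and none of the 2674 stretches of 150 bases in the *Gbp2b* transcript occurred in a transcript of another gene. The same held for *Gbp2*, *Gbp3*, *Gbp5*, *Gbp8* and *Gbp9*. At 50 bases, 51 of the 2774 stretches of *Gbp2b* were shared, all with *Gbp2*. *Gbp6* was the exception among the members, since 59.1% of its stretches of 150 bases also occurred in *Gbp10* or *Gm43302*, and 1726 of its exon bases (29.0%) overlapped *Gm43302* on the same strand, so its counts are uncertain. For *Gbp7* the share was 8.77%, all with *Gm43802*, a processed pseudogene that lies within it. Exons of *Gbp4*, *Gbp8* and *Gbp9* overlapped on the same strand over 60 or 61 bases, which was 0.814% to 1.77% of their exon lengths. *Gbp2* shared 24 bases with *Mir6381* on the opposite strand, and whether the counting used strand is not given in the sources used here.

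The upstream sequences of the members on chromosome 3 shared the ISRE letters, a feature already known for this family. The members are tandem copies, so their matches are not independent of each other. The RefSeq promoter sequences (GRCm38.p6) matched 5 of the 9 members, and each of the 5 had the ISRE letters GAAANNGAAA on at least 1 strand within 250 bases before a RefSeq start. These letters were found in 978 of 32851 promoters of that length (2.98%). Counted by promoter in the same way, 5 of the 6 windows of members had them, and the other, a second window of *Gbp3*, had none. The windows below are 30 bases from the plus strand of chromosome 3, in genome order. The capitals mark the match, which reads as the reverse complement here. They are shown because they place the same element upstream of *Gbp2b* and of its neighbours.
Gbp5, chr3:142496759-142496788: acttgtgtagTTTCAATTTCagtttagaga
Gbp7, chr3:142530273-142530302: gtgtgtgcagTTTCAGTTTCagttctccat
Gbp3, chr3:142559989-142560018: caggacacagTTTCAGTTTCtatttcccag
Gbp2b, chr3:142594700-142594729: gtacttctaaTTTCACTTTCttctttatca
Gbp2, chr3:142620594-142620623: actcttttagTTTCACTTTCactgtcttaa
The match began 165 bases before the start in *Gbp5*, 137 in *Gbp2b*, 59 in *Gbp2*, 53 in *Gbp7* and 45 in *Gbp3*, where another match overlapped it 39 bases before the start. The first base of each match lay outside the GENCODE M21 exons of the same gene, except in *Gbp2*, where it fell in an exon. Exons of other genes were not checked. The GAS letters TTCNNNGAA were found in *Gbp5* and *Gbp7* only, against 7.02% of all promoters. A match to letters is a description of sequence and shows no binding. No match says only that these letters were not in this window.

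The libraries held 26819122 and 28607746 counts in the controls and 23311689 and 27093849 in *Mps1*sKO, and the GBP genes took 0.00328% to 0.00395% of them. The targeted gene, *Ttk*, had 750 and 940 counts in the controls and 302 and 326 in *Mps1*sKO, a log2 fold change of -1.26 (edgeR quasi-likelihood test, adjusted p = 0.0461) in the direction that the labels give. Levels below are CPM, the counts scaled to library size with TMM factors, as mean ± SD over the 2 libraries of a group. The limit set by a count of 0 was taken as 3 counts (0.104 to 0.129 CPM, depending on the library), a limit for counting error only. Of the 20561 loci, 6 were lower in *Mps1*sKO at an adjusted p below 0.05 (0.0292%) and 0 were higher (0%, with 807 at an unadjusted p below 0.05 and 7 at an adjusted p below 0.05 by DESeq2). At an unadjusted p below 0.05 there were 1912 loci in either direction (9.3%), 1105 of them lower (5.37%) and 807 higher (3.92%). Between groups that did not overlap, 4333 loci were lower (21.1%) and 4176 were higher (20.3%).

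Of the 9 members, 2 were lower in both *Mps1*sKO libraries than in both controls, namely *Gbp2b* and *Gbp3*. *Gbp7* alone was higher in both, and with library size as the only scaling its groups overlapped. The groups overlapped for the other 6 members. These counts stand beside 21.1% lower and 20.3% higher over all loci, and nothing is read from them because the family was chosen on this contrast.

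**Figure D1:**
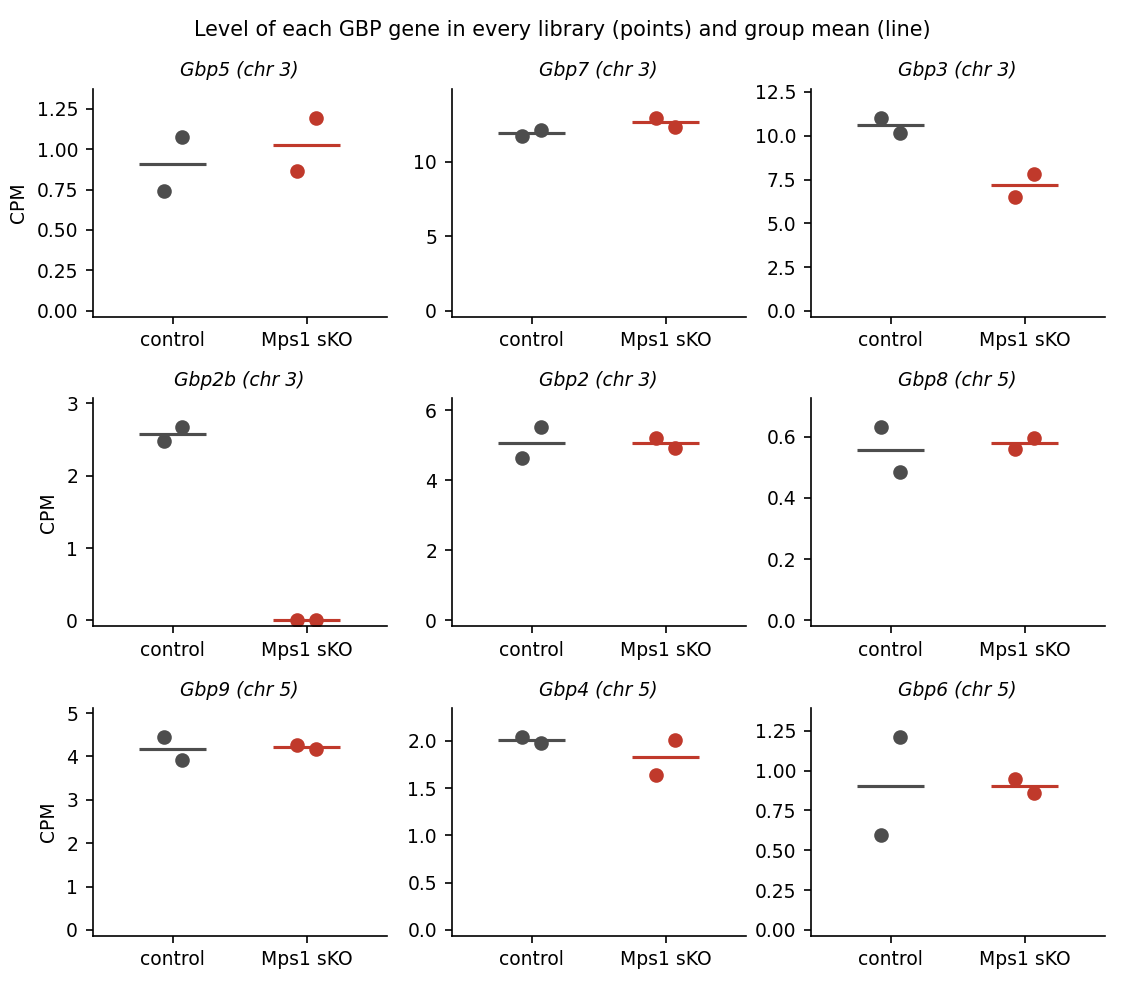
Level of each GBP gene in CPM (vertical axis, a separate scale for each gene, starting at 0) in the control and *Mps1*sKO libraries (points) with the group mean (line). *Gbp2b* was at 0 in both *Mps1*sKO libraries, *Gbp3* was lower in both, and the points of *Gbp2*, *Gbp4*, *Gbp5*, *Gbp6*, *Gbp8* and *Gbp9* overlapped between groups.

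*Gbp2b* (ENSMUSG00000040264; chr3:142594847-142619179, plus strand) encodes the GBP that was formerly called GBP1 in mice, an interferon-induced GTPase. Its counts were 67 and 77 in the controls, against 0 and 0 in *Mps1*sKO. In CPM this was 2.48 and 2.67 in the controls (2.58 ± 0.128), and the controls stood close together. At the control level, 59.8 and 69.1 counts would have been expected in the *Mps1*sKO libraries. Taking the floor of 3 counts in each *Mps1*sKO library, *Gbp2b* was at least 21.4-fold lower in *Mps1*sKO. It passed the filter on low counts through the control libraries alone. The gene has 1 annotated transcript, and none of its exon bases overlap another gene.

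*Gbp2b* was chosen for this pattern, so its place in the search below is no support for it. No other locus with at least 30 counts in both controls had the pattern. Loci with fewer counts were not searched, and *Ltf*, a neutrophil marker given below, had counts in both controls and none in *Mps1*sKO. Of 16443 loci with at least 30 counts in both control libraries, 1 had at most 3 counts in both *Mps1*sKO libraries, and it was *Gbp2b* itself. In the opposite direction, 0 of 15986 loci with at least 30 counts in both *Mps1*sKO libraries had at most 3 in both controls. Loci with at least 30 counts in both controls were then ordered by the higher *Mps1*sKO count over the lower control count. The loci that followed *Gbp2b* still had reads in *Mps1*sKO. Directly after it came a locus with no gene name on an assembly patch, with 613 and 623 counts in the controls and 39 and 42 in *Mps1*sKO. Another such locus, with 160 and 179 counts in the controls and 28 and 41 in *Mps1*sKO, stood between *Gm6741* and *Mast3*. The annotated genes among them were as follows. *Atp6v1c1*, a subunit of the vacuolar proton pump, had 571 and 650 counts in the controls and 52 and 41 in *Mps1*sKO. The pseudogene *Gm6741* had 98 and 100 counts in the controls and 11 and 11 in *Mps1*sKO. *Mast3*, a microtubule-associated kinase, had 232 and 335 counts in the controls and 62 and 74 in *Mps1*sKO.

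**Figure D2:**
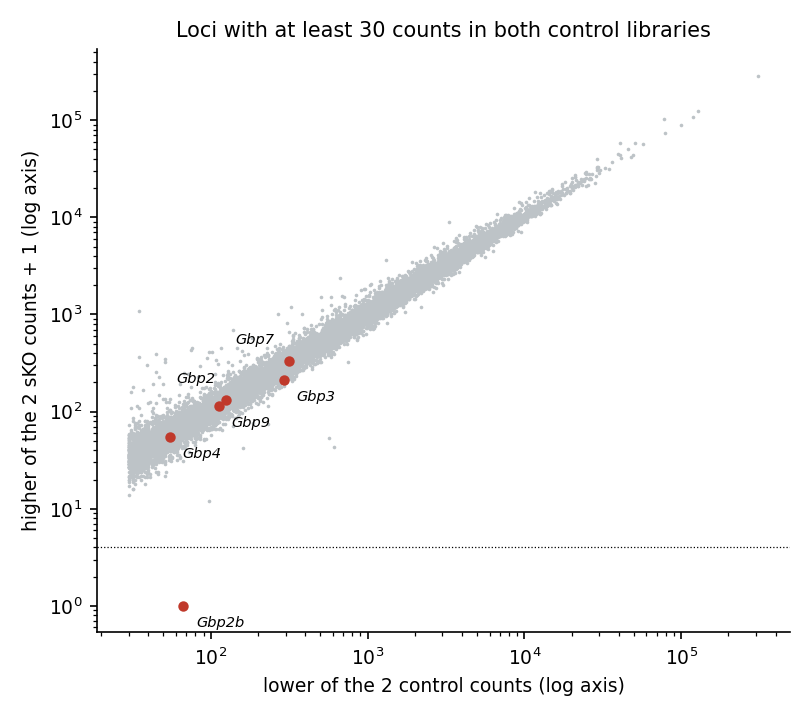
For each locus with at least 30 counts in both controls, the lower of the control counts (horizontal, log axis) against the higher of the *Mps1*sKO counts plus 1 (vertical, log axis), with GBP genes in red and a dotted line at 3 counts. *Gbp2b* is the 1 locus of 16443 under the line, while *Gbp2*, *Gbp3*, *Gbp4*, *Gbp7* and *Gbp9* lie within the cloud of all loci and *Gbp5*, *Gbp6* and *Gbp8* had too few control counts to be drawn.

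*Gbp2* (ENSMUSG00000028270; chr3:142620602-142638008, plus strand), the closest relative of *Gbp2b* and its neighbour on the downstream side, encodes a prenylated GBP that gathers on the vacuoles of parasites. It had 125 and 159 counts in the controls and 121 and 132 in *Mps1*sKO. The levels were 5.07 ± 0.615 CPM in the controls and 5.07 ± 0.209 CPM in *Mps1*sKO, or 99.9% of the control mean, and the *Mps1*sKO libraries lay between the controls. The nearest relative thus showed no difference beyond the spread of its libraries, with a log2 fold change between -0.12 and 0.13 when 1 library was left out in turn.

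*Gbp3* (ENSMUSG00000028268; chr3:142560026-142573209, plus strand), the neighbour of *Gbp2b* on the upstream side, had 297 and 294 counts in the controls and 151 and 210 in *Mps1*sKO. The levels were 10.6 ± 0.590 CPM in the controls and 7.17 ± 0.932 CPM in *Mps1*sKO, or 67.6% of the control mean. Both *Mps1*sKO libraries were below both controls, and the *Mps1*sKO libraries, at 6.51 and 7.83 CPM, stood farther apart than the controls. The log2 fold change was -0.56 (SE 0.161). Leaving out *Mps1*sKO replicate 1 gave -0.44, and leaving out *Mps1*sKO replicate 2 gave -0.70. In RNA from whole testes, fewer cells that express a gene and less RNA per cell cannot be told apart, here and for every gene below.

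*Gbp7* (ENSMUSG00000040253; chr3:142530342-142550149, plus strand) had 316 and 350 counts in the controls and 300 and 331 in *Mps1*sKO. Its levels were 11.9 ± 0.283 CPM in the controls and 12.6 ± 0.420 CPM in *Mps1*sKO, or 106% of the control mean. The groups did not overlap after TMM scaling, but the highest control library (12.1 CPM) and the lowest *Mps1*sKO library (12.3 CPM) were close together, and they overlapped when libraries were scaled by size only. *Gbp5* (ENSMUSG00000105504; chr3:142493978-142522344, plus strand), which promotes NLRP3 inflammasome assembly, had 20 and 31 counts in the controls and 20 and 32 in *Mps1*sKO. At this depth its levels of 0.908 ± 0.235 CPM and 1.03 ± 0.234 CPM could not be separated.

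The 4 members on chromosome 5, all on the minus strand, showed no difference larger than the spread between libraries. *Gbp9* (ENSMUSG00000029298; chr5:105077630-105139539) was the most abundant of them, with 120 and 113 counts in the controls and 99 and 112 in *Mps1*sKO, or 4.18 ± 0.380 CPM and 4.22 ± 0.0657 CPM. *Gbp4* (ENSMUSG00000079363; chr5:105115767-105139586) had 55 and 57 counts in the controls and 38 and 54 in *Mps1*sKO, or 2.01 ± 0.0466 CPM and 1.83 ± 0.265 CPM. The second *Mps1*sKO library of *Gbp4* lay between the controls, so the groups overlapped although the first lay below both.

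The last 2 members of that cluster were near the limit of what the depth resolves. *Gbp6* (ENSMUSG00000104713; chr5:105270702-105293698) had 16 and 35 counts in the controls and 22 and 23 in *Mps1*sKO, which was 0.903 ± 0.437 CPM and 0.903 ± 0.0644 CPM. *Gbp8* (ENSMUSG00000034438; chr5:105014150-105139540) had 17 and 14 counts in the controls and 13 and 16 in *Mps1*sKO, which was 0.558 ± 0.103 CPM and 0.578 ± 0.0254 CPM. The controls of *Gbp6* differed from each other by more than the *Mps1*sKO libraries differed from them, and leaving out 1 library moved its log2 fold change from -0.43 to 0.60.

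Other GBP genes in the table had few counts or none. *Gbp11*, annotated as a polymorphic pseudogene, had 7 and 17 counts in the controls and 3 and 13 in *Mps1*sKO. *Gbp10*, whose coding sequence was 98.4% identical to that of *Gbp6*, had 7 and 13 counts in the controls and 5 and 6 in *Mps1*sKO and did not pass the filter. *Gbp2-ps*, *Gm43802* and *Gm43302* had 0 counts in every library. All 637 bases of *Gm43802* lie in exons of *Gbp7*, and *Gm43302* shares 1726 exon bases with *Gbp6*. How reads over shared bases were counted is not given in the sources used here. The 0 counts of *Gm43802* and *Gm43302* therefore do not show that they had no transcript.

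Summed over the 9 members, the family reached 38.3 and 39.1 CPM in the controls and 32.9 and 33.9 CPM in *Mps1*sKO. Without *Gbp2b* the sums were 35.8 and 36.5 CPM in the controls and 32.9 and 33.9 CPM in *Mps1*sKO. Without both *Gbp2b* and *Gbp3* they were 24.8 and 26.3 CPM in the controls and 26.4 and 26.1 CPM in *Mps1*sKO. The other 7 together thus overlapped between the groups. Because the 2 left out were picked as the lower members in these same libraries, this overlap is a description and no separate result. The share of *Gbp7* in the family sum was 30.6% and 31.0% in the controls and 39.3% and 36.4% in *Mps1*sKO, and that of *Gbp3* was 28.8% and 26.0% in the controls and 19.8% and 23.1% in *Mps1*sKO. A share also changes when the other members of the sum change, and *Gbp7* itself was at 106% of its control mean.

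Levels of different members can be compared only per length, as CPM per kilobase of the deposited gene length. That length includes bases shared with other genes, 29.0% of the exon bases of *Gbp6* and 11.3% of those of *Gbp7*. How reads over such bases were counted is not given in the sources used here. The levels and places of *Gbp6* and *Gbp7* in this order are therefore uncertain. In the controls the order of means was *Gbp3* (3.25), *Gbp7* (2.12), *Gbp2* (2.02), *Gbp2b* (0.912), *Gbp9* (0.808), *Gbp4* (0.268), *Gbp8* (0.162), *Gbp6* (0.152) and *Gbp5* (0.137). Per length, *Gbp2b* was therefore a member of middling level in the controls, with a mean above those of *Gbp4*, *Gbp5*, *Gbp6*, *Gbp8* and *Gbp9*. In counts, on which having reads depends, *Gbp9* (120 and 113 in the controls) stood above *Gbp2b* (67 and 77). The control ranges of *Gbp7* and *Gbp2* overlapped, as did those of *Gbp8*, *Gbp6* and *Gbp5* with each other.

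Over all 4 libraries, *Gbp3* had 2.72 ± 0.637 CPM per kilobase (SD, n = 4), *Gbp7* 2.19 ± 0.0901 and *Gbp2* 2.01 ± 0.149, and neighbours in this order overlapped. *Gbp9* followed at 0.812 ± 0.0433 with no overlap with *Gbp2*. *Gbp2b*, at 0.456 ± 0.527, spanned 0 to 0.945 and overlapped both *Gbp9* and *Gbp4* (0.256 ± 0.025). *Gbp8* (0.165 ± 0.0181), *Gbp6* (0.152 ± 0.0429) and *Gbp5* (0.146 ± 0.0306) formed the lowest group, below *Gbp4* and overlapping each other. The limit given above for *Gbp6* and *Gbp7* holds here too.

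**Figure D3:**
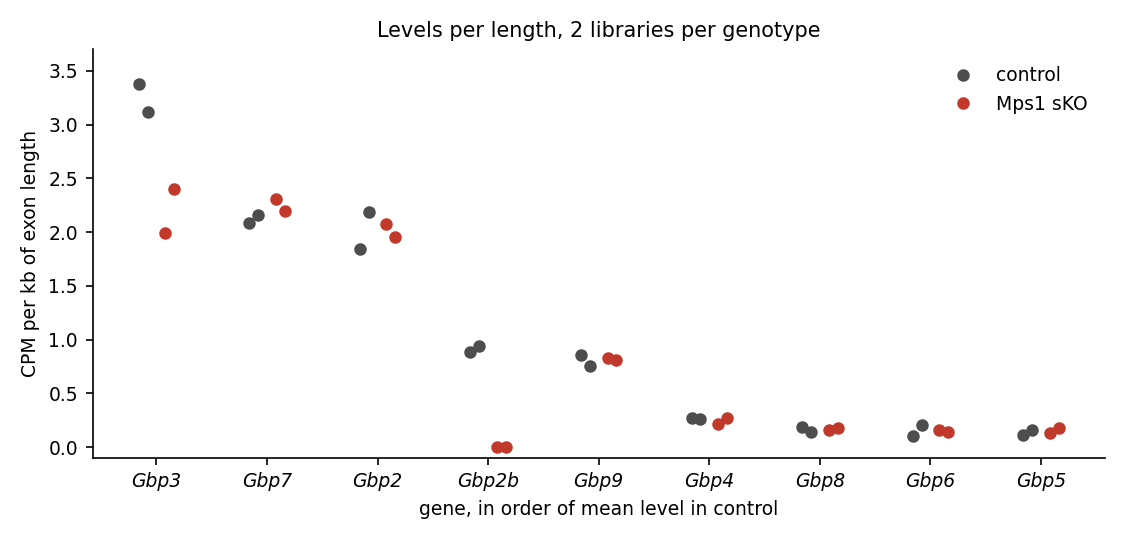
Level of each GBP gene per length in CPM per kilobase of exon length (vertical axis), in order of the control mean (horizontal axis), with each control and *Mps1*sKO library as a point. *Gbp3*, *Gbp7* and *Gbp2* stand above the rest, and *Gbp2b* is near *Gbp9* in the controls (0.912 and 0.808) and at 0 in *Mps1*sKO.

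The members form 1 cluster of 5 genes over 144031 bases on chromosome 3 (chr3:142493978-142638008) and 1 of 4 genes over 279549 bases on chromosome 5 (chr5:105014150-105293698). Along chromosome 3 the order was *Gbp5*, *Gbp7*, *Gbp3*, *Gbp2b* and *Gbp2*, so the 2 members that were lower without overlap were adjacent. Nothing is read from this position, because the family was chosen on *Gbp2b* and 21.1% of all loci were lower without overlap. Of the 10 tested loci nearest to this cluster, 0 had an unadjusted p below 0.05 by edgeR, and their log2 fold changes ran from -0.42 for *Bmpr1b* to 0.70 for *Gm25965*. Among these 10 neighbours, 2 were lower and 4 were higher without overlap, beside 21.1% and 20.3% over all loci. *Kyat3*, a kynurenine aminotransferase gene, had 501 and 568 counts in the controls and 440 and 487 in *Mps1*sKO, a log2 fold change of -0.04. The adjoining *Gtf2b*, a general transcription factor, stood at -0.09 and *Pdlim5*, on the other side of the cluster, at -0.16.

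Around the chromosome 5 cluster, 3 of the 10 nearest tested loci had an unadjusted p below 0.05 by edgeR, beside 9.3% over all loci. Without overlap, 3 were lower and 3 were higher, beside 21.1% and 20.3% over all loci. The relative *Gbp11* was among these 10, and its groups overlapped. *Lrrc8b* (log2 fold change 0.40) and *Lrrc8d* (0.32), subunits of volume-regulated anion channels, were higher, and the pseudogene *Rps15a-ps5* (-0.63) was lower. Their adjusted p-values by edgeR were 0.494 to 0.527, so none passed. The summed level of the members of this cluster was 7.71 and 7.58 CPM in the controls and 7.41 and 7.64 CPM in *Mps1*sKO, which overlapped.

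**Figure D4:**
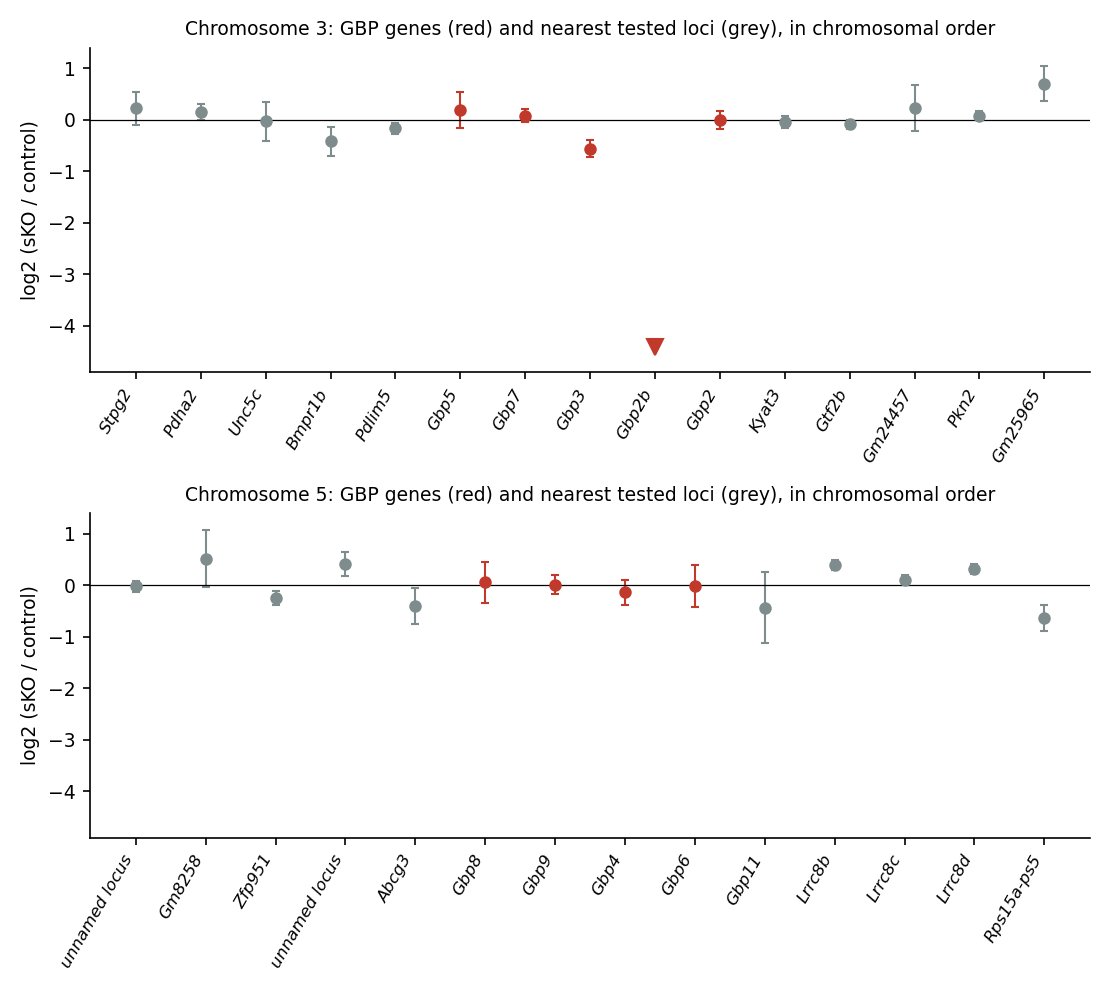
Log2 fold change of *Mps1*sKO over control (vertical axis, with SE bars) for the GBP genes (red) and the 10 nearest tested loci (grey) in genome order (horizontal axis, not to scale), for the chromosome 3 cluster (top) and the chromosome 5 cluster (bottom). The triangle for *Gbp2b* is the bound of at least 21.4-fold lower, and its neighbours *Gbp3* and *Gbp2* stand at -0.56 and near 0.

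The genes that switch on GBPs, and the other genes that interferons switch on, were examined next. Of the interferon genes themselves, 21 were in the table and 0 passed the filter. Each had 0 to 3 counts per library, *Ifng*, the main inducer of GBPs, having 0 and 1 in the controls and 1 and 1 in *Mps1*sKO. Of the 167 genes in the table from the lists on interferons, their signalling and their targets, on GBP partners and on atlastins, 124 were tested. Of these, 7 were lower (5.65%) and 5 higher (4.03%) at an unadjusted p below 0.05, beside 5.37% lower and 3.92% higher over all loci. At an adjusted p below 0.05 there were 0 by edgeR and 0 by DESeq2. Their median log2 fold change was 0.0041, beside 0.00027 over all tested loci, and 62 were lower and 62 higher.

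The receptors and signalling genes were well expressed. Of the 22 tested, 1 was lower and 2 were higher at an unadjusted p below 0.05, and their median log2 fold change was 0.07. *Irf1*, a transcription factor that binds ISREs and is required for full GBP induction, was at 43.1 ± 4.17 CPM in the controls and 34.2 ± 1.68 CPM in *Mps1*sKO, with a log2 fold change of -0.33 (adjusted p = 0.497 by edgeR, which did not pass). The receptor chains *Ifngr2* (log2 fold change 0.22) and *Ifnar2* (0.29) were higher at an unadjusted p below 0.05 only. *Jak1*, the kinase that these receptors share, was at 362 ± 4.53 CPM and 391 ± 20.7 CPM, and *Ifnar1* (0.04) overlapped between the groups.

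The other interferon-inducible GTPases, which include the immunity-related GTPases that act with GBPs on pathogen vacuoles, gave 6 lower and 6 higher of 12 tested genes and a median log2 fold change of -0.02, which became -0.13 when *Mps1*sKO replicate 1 was left out and 0.13 when *Mps1*sKO replicate 2 was. None had an unadjusted p below 0.05 by edgeR or by DESeq2. *Irgm1*, which regulates the other immunity-related GTPases, had 82 and 88 counts in the controls and 98 and 88 in *Mps1*sKO. *Irgm2* had 252 and 233 counts in the controls and 184 and 199 in *Mps1*sKO, and *Igtp* had 187 and 219 in the controls and 150 and 168 in *Mps1*sKO. Both of these were lower without overlap, with log2 fold changes of -0.18 and -0.19, while *Irgq*, the most abundant of the list, stood at 0.23. Among the 12 genes of this list with a promoter sequence, 7 had the ISRE letters.

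Of 48 interferon-stimulated genes tested, 3 were lower and 3 were higher at an unadjusted p below 0.05, with a median log2 fold change of 0.01. Of the 44 genes of this list with a promoter sequence, 17 had the ISRE letters that every matched GBP gene had. *Oasl2*, a member of the oligoadenylate synthetase family, had 519 and 634 counts in the controls and 385 and 304 in *Mps1*sKO, a log2 fold change of -0.57. *Isg20*, an exonuclease, had 20 and 38 counts in the controls and 5 and 16 in *Mps1*sKO, and *Oas1g* had 12 and 13 in the controls and 4 and 5 in *Mps1*sKO. These 3 lower genes stood beside 3 higher ones, *Ly6e* (log2 fold change 0.35), *Trim25* (0.24) and *Eif2ak2* (0.23), which encodes the double-stranded RNA-dependent kinase PKR. *Ly6e* was the most abundant of the list, at 124 ± 10.8 CPM in the controls and 158 ± 0.301 CPM in *Mps1*sKO, and *Ifi27* stood at 99.7 ± 10.2 CPM and 100.4 ± 11.6 CPM.

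Of 19 antigen presentation genes, 2 were lower and 0 were higher at an unadjusted p below 0.05, and the median log2 fold change was -0.06. This median turned to 0.07 when *Mps1*sKO replicate 1 was left out and to 0.05 when control replicate 1 was, and it fell to -0.25 when *Mps1*sKO replicate 2 was. *Psmb10*, an immunoproteasome subunit, was at 29.4 ± 1.44 CPM in the controls and 22.5 ± 2.75 CPM in *Mps1*sKO. The class I gene *H2-K1* was at 91.1 ± 11.2 CPM in the controls and 74.1 ± 8.31 CPM in *Mps1*sKO. The most abundant genes of the list had an unadjusted p of 0.05 or more, with *Tapbp* and *B2m*, the light chain of class I molecules, at log2 fold changes of 0.12 and 0.11 and *Psme1* at -0.06.

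Of 14 tested genes for inflammasome and autophagy partners of GBPs, 0 had an unadjusted p below 0.05 by edgeR. Without overlap, 2 were lower and 1 was higher, beside 21.1% and 20.3% over all loci. Their median log2 fold change was -0.02, and it became -0.11 when *Mps1*sKO replicate 1 was left out and 0.05 when *Mps1*sKO replicate 2 was. *Map1lc3b* (-0.06), *Atg12* (-0.07) and *Atg16l1* (-0.04), of the conjugation system that guides GBPs to vacuoles, overlapped between groups. Of the 6 genes for the enzymes that prenylate GBPs and trim their tails, 3 were lower and 3 were higher, with *Pggt1b*, *Icmt* and *Fnta* between -0.08 and 0.04. Of the 3 atlastins, distant relatives of GBPs that fuse the endoplasmic reticulum, *Atl1* was lower at an unadjusted p below 0.05 (-0.32), and *Atl2* (0.03) and *Atl3* (0.08) overlapped.

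**Figure D5:**
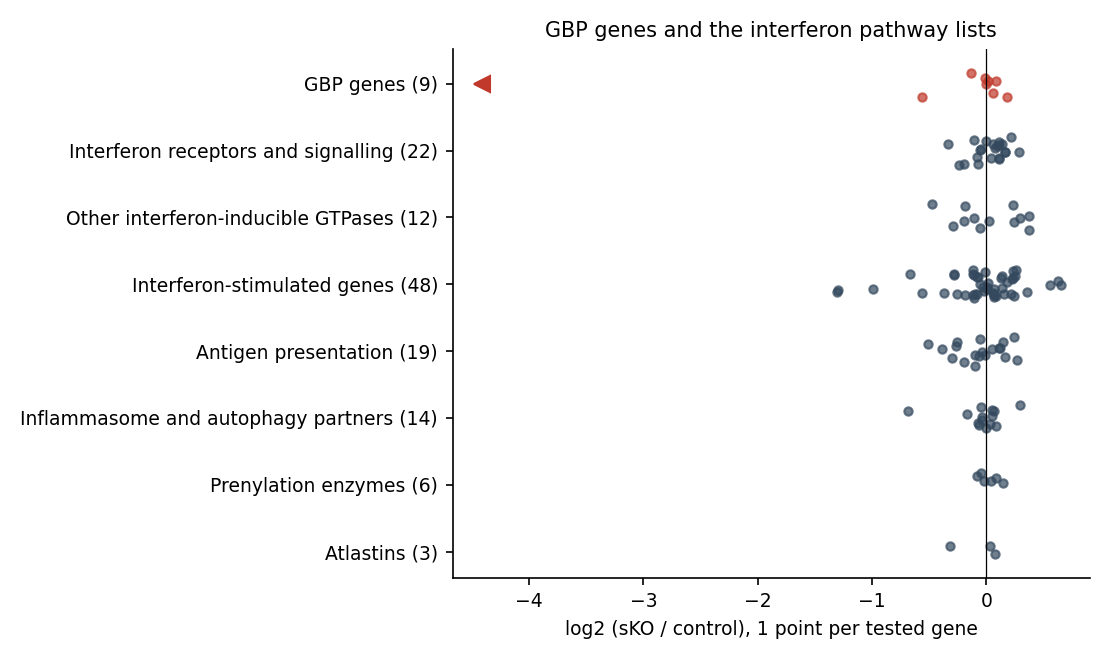
Log2 fold change of *Mps1*sKO over control (horizontal axis) for each tested gene (points) of the GBP family and of each list (vertical axis, with the number of genes). The triangle is the bound for *Gbp2b* (at least 21.4-fold lower), and the medians of the lists lie between -0.06 and 0.07, a range that widens to between -0.25 and 0.13 with 1 library left out.

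The cell types that could carry GBP transcripts were checked by their markers. Markers of testis cells were present, with germ cell markers summing to 857 to 1454 CPM, Sertoli markers to 3228 to 4697 CPM and Leydig markers to 854 to 943 CPM. The 14 macrophage markers, of cells that express GBPs readily, summed to 178 and 185 CPM in the controls and 189 and 175 CPM in *Mps1*sKO, with a median log2 fold change of -0.08 that turned to 0.07 without *Mps1*sKO replicate 2, and 0 had an unadjusted p below 0.05 by edgeR or by DESeq2. The 13 endothelial markers summed to 257 and 250 CPM in the controls and 263 and 265 CPM in *Mps1*sKO. The T and NK cell markers, of cells that make interferon gamma, summed to 7.97 and 7.65 CPM in the controls and 7.20 and 7.72 CPM in *Mps1*sKO.

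Neutrophil markers were at low levels that were lower in both *Mps1*sKO libraries, as was *Gbp2b*. All 9 together summed to 3.12 and 3.22 CPM in the controls and 0.948 and 0.596 CPM in *Mps1*sKO. The 5 markers that passed the filter did so through the controls alone, so the direction of these 5 is no separate evidence. *S100a8* had 29 and 28 counts in the controls and 4 and 6 in *Mps1*sKO, and *Ltf*, which encodes lactoferrin, had 12 and 11 in the controls and 0 and 0 in *Mps1*sKO. None passed at an adjusted p below 0.05 by edgeR, and DESeq2 gave no adjusted p for any of the 9. Among the markers that did not pass the filter, *Ly6g* (0 and 0 in the controls, 1 and 0 in *Mps1*sKO), *Mpo* (0 and 4, 1 and 1) and *Elane* (1 and 3, 0 and 0) were at or near 0 in both groups. The part of these cells in the level of *Gbp2b* was not tested.

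Germ cell and Sertoli markers also moved with the groups. All 8 germ cell markers were lower, 7 at an unadjusted p below 0.05 and with a median log2 fold change of -0.46, and all 9 Sertoli markers were higher, 4 at an unadjusted p below 0.05 and with a median of 0.33. None of these passed at an adjusted p below 0.05 by edgeR, while DESeq2 passed 3 germ cell markers. The germ cell median was of a size with the log2 fold change of *Gbp3*, and its part in the level of *Gbp3* was not tested. The remaining lists had median log2 fold changes of 0.18 for Leydig, -0.12 for peritubular myoid and -0.58 for the 3 tested adipocyte markers. The adipocyte median was -1.45 with no filter and -1.50 with DESeq2, and it ran from -2.30 without control replicate 1 to -0.45 without control replicate 2. The summed level of all 6 adipocyte markers was higher in *Mps1*sKO (24.2 and 26.1 CPM) than in the controls (21.7 and 19.9 CPM).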

How the data were processed

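Total RNA from whole P10 testes was sequenced as NEBNext Ultra libraries (paired-end, 150 bases). The submitters' processing notes name HISAT2 2.0.5, featureCounts, DESeq2 1.16.1 and the build mm10, with strandedness not given in the sources used here. The authors deposited raw counts per gene without normalization, FPKM values and gene lengths. The deposited FPKM values were used only as an alternative for levels per length.

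Samples were grouped by labelled genotype. Members, lists and tests were chosen with earlier results of these data known. The test on counts was that of edgeR 4.0.16, run in R 4.3.3 (filterByExpr, TMM, two-sided quasi-likelihood test on genotype, Benjamini-Hochberg over 20561 loci). The filter removed 35259 loci, of which 20558 had no count. Alternatives were DESeq2 1.42.0, its size factors, library size, other filters, annotated genes only, a replicate block and each library left out. Tests were checked on simulated data (20561 genes, 200 changed), where edgeR called 89.8% of log2 changes of 1 and 100% of log2 changes of 2, with 5 unchanged genes called. The simulation gave every gene the same spread between libraries beyond counting error and placed changes only in genes above a minimum count. These shares therefore do not carry over to the real loci, least of all to members with few counts.

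Named genes were all members and relatives, *Ttk*, the 5 nearest tested loci on each side of a cluster, loci with at least 30 counts in one group and at most 3 in the other, and list genes with an unadjusted p below 0.05 or among the 3 most abundant. *Irgm1*, *Ifng*, *Atp6v1c1*, *Gm6741*, *Mast3*, *Irf9*, *Stat2*, *Nlrc5*, *Gsdmd*, *Casp1*, *Casp4* and the neutrophil markers were named after their values were seen. The same holds for the loci with no gene name given beside *Gbp2b*.

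Libraries of 1 group differed by more than counting error (chi-square per degree of freedom 8.49 and 11.6). No batch is labelled. Coordinates follow GENCODE M21 on GRCm38, whose gene lengths equalled the deposited ones for all members. Coding sequences were aligned with MAFFT 7.526, and promoters were taken from RefSeq with Python 3.11.15 and pandas 2.3.3. Of the list genes, 1 is not reported here.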

Additional observations from a re-analysis of the deposited data

How the results depend on the processing

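The number of loci at an adjusted p below 0.05 depended on the analysis. The 6 lower loci became 251 with no filter on low counts, 3 with at least 10 counts in every library, 30 with DESeq2 and 3 with annotated genes only, and 11 to 126 with 1 library left out. The 0 higher loci became 139 with no filter, 7 with DESeq2, and 6 to 73 with 1 library left out. At an unadjusted p below 0.05, the 1105 lower loci became 1693 with no filter and 596 with DESeq2, and 486 to 1502 with 1 library left out. The 807 higher loci became 1310 with no filter and 533 with DESeq2, and 317 to 1248 with 1 library left out. Of the interferon pathway genes, the 7 lower became 4 with DESeq2 and 2 to 7 with 1 library left out, and the 5 higher became 2 with DESeq2, 3 with library size only and 3 to 5 with 1 library left out. Of the cell type markers, the 7 higher became 0 to 11 with 1 library left out. The lowest counts, 2 lower interferon pathway genes and 0 higher markers, were those without control replicate 2. In these fits the lone library of a group is assumed to vary like the libraries of the other group. Of the members lower without overlap, 1 in place of 2 was left with at least 10 counts in every library, since that filter removes *Gbp2b*, and the 1 higher member became 0 with library size only. The cause of the other changes was not tested.

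The labels number the replicates of each group, but the deviations of same-numbered libraries had a correlation of -0.238, so the numbers were not taken to pair them. With the replicate number as a block, 2 loci were lower at an adjusted p below 0.05, 686 lower and 353 higher at an unadjusted p below 0.05, with 4 lower and 1 higher interferon pathway genes and 4 higher markers. With the pairing crossed, which was chosen after seeing the data, 304 loci were lower and 246 higher at an adjusted p below 0.05, 1916 lower and 1877 higher at an unadjusted p below 0.05, and 13 markers were higher.

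With the deposited FPKM values, the level per length of each member moved by less than its spread between libraries. Leaving out 1 library could not test this, because dropping 1 of 4 values always moves their mean by less than their SD. For *Gbp2b* the SD (0.527 CPM per kilobase) also holds the difference between the groups. Its mean of 0.456 fell to 0.293 when control replicate 2 was dropped and rose to 0.608 when either *Mps1*sKO library was. With 13 to 35 counts in each library, *Gbp5*, *Gbp6* and *Gbp8* could show no difference smaller than their spread.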

Other observations

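The levels of the interferon pathway beside those of the GBP genes give the setting in which the family was read. The signalling genes summed to 1293 and 1314 CPM in the controls and 1376 and 1342 CPM in *Mps1*sKO, the other interferon-inducible GTPases to 53.3 and 47.7 CPM in the controls and 54.3 and 51.8 CPM in *Mps1*sKO, and the interferon genes to at most 0.186 CPM in a library. *Irf9*, part of the complex that binds ISREs, was at 35.4 ± 1.41 CPM in the controls and 30.9 ± 0.290 CPM in *Mps1*sKO, lower without overlap and with an adjusted p of 0.583 by edgeR, and *Stat2*, its partner, was at 36.3 ± 0.392 CPM and 39.1 ± 0.00276 CPM, higher without overlap. *Nlrc5*, which controls class I genes, was at 2.11 ± 0.151 CPM in the controls and 2.09 ± 0.153 CPM in *Mps1*sKO, which overlapped. These genes were chosen after their values were seen.

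Among the partners of GBPs in inflammasome signalling, *Gsdmd*, which forms pores in dying cells, was at 32.1 ± 3.18 CPM in the controls and 34.0 ± 1.04 CPM in *Mps1*sKO, and *Casp1* at 0.749 ± 0.116 CPM and 0.779 ± 0.00482 CPM. *Casp4*, the caspase that senses lipopolysaccharide released with the help of GBPs, was at 0.684 ± 0.134 CPM in the controls and 0.426 ± 0.129 CPM in *Mps1*sKO, lower without overlap, with a log2 fold change of -0.69 (SE 0.430) and an adjusted p of 0.635 by edgeR.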
